A study of Homo sapiens with 3 samples.

Results

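The genes described here are those of proline and D-amino acid oxidation and of the short pathways around them, namely PRODH, PRODH2, ALDH4A1, PYCR1, PYCRL, ALDH18A1, OAT and DAO. They are 8 of the 27274 gene names on the array, and every probe that carried one of these names was used, 12 probes in all. The set was chosen by its readout, because the signals of PRODH and DAO had been seen to be higher in etoposide-treated cells on these same arrays, and the other 6 genes were added as their neighbours in the pathway. The values of PRODH and DAO in all 3 comparisons are therefore given as a description, and nothing is supported with them.

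The samples were cells of HepG2, an established human hepatocellular carcinoma line with wild-type p53, used without genetic change. Etoposide, which traps topoisomerase II on DNA and leaves double-strand breaks, was applied at 0 μM (control cells), 10 μM (the low dose) or 100 μM (the high dose) for 30 h. Each condition was measured once, on 1 array hybridised with Cy3-labelled RNA, and all arrays were compared with each other to ask which genes respond to the drug and which respond more strongly to the low dose, used to induce senescence, than to the high dose, used to induce apoptosis. With 1 array per condition there is no replicate check and no test between conditions, so every fold change below sets 1 array against another.

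Proline is broken down in mitochondria. Proline dehydrogenase, encoded by PRODH, oxidises proline to pyrroline-5-carboxylate and passes the electrons to the respiratory chain. ALDH4A1 oxidises that product further to glutamate. In the opposite direction, ALDH18A1 makes pyrroline-5-carboxylate from glutamate, OAT makes it from ornithine, and the reductases PYCR1 and PYCRL (now named PYCR3) turn it back into proline. PRODH2 is related to PRODH in sequence and oxidises hydroxyproline in liver and kidney. D-amino acid oxidase, encoded by DAO, acts in peroxisomes on D-amino acids, among them D-proline and D-serine, and releases hydrogen peroxide. Both oxidases are known to be able to raise reactive oxygen species in cells.

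Promoter sequence was given in RefSeq tables (GRCh38.p14) for 5 of the 8 genes, PRODH2, ALDH4A1, ALDH18A1, OAT and DAO. The 250 bases before the annotated start are shown for 3 of them: for DAO, whose signal was higher than in control cells at both doses, for ALDH18A1, whose signal was lower at both, and for OAT, whose signal stayed nearest to that of control cells. Each is written 5′ to 3′ on the strand of the gene. DAO lies on the plus strand at chr12:108879842-108880091, ALDH18A1 on the minus strand at chr10:95656712-95656961 and OAT on the minus strand at chr10:124418924-124419173. Capitals mark matches to the motifs searched.
DAO: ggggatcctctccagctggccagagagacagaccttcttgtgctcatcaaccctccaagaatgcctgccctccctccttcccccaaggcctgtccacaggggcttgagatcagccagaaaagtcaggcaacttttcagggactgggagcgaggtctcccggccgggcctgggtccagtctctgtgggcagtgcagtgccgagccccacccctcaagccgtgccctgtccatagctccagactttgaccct
ALDH18A1: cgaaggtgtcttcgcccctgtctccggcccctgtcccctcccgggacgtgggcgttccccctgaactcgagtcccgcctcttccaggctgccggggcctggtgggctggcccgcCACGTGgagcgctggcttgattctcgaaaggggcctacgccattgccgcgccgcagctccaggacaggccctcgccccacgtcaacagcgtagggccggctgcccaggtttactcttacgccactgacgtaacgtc
OAT: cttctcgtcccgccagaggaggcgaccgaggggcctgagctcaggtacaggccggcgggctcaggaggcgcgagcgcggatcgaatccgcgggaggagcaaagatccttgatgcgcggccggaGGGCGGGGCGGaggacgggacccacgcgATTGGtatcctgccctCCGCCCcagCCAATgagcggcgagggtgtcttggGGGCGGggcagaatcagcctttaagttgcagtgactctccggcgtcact

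The 6 motifs below were searched on both strands of these windows. They were the p53 half-site, the ATF4 CARE core (TGATGNAA), the E-box (CACGTG), the TATA box (TATAAA), the CCAAT box (CCAAT) and the GC box (GGGCGG). The DAO window, with a GC content of 62.0% against a median of 58.0% over all promoters, held none of them, and neither did that of PRODH2. ALDH18A1 held 1 E-box, 136 bases before the start, a motif found in 6.34% of 35116 promoter windows of this length. OAT held 2 CCAAT boxes and 4 GC boxes, 2 of which overlap each other. CCAAT boxes were found in 32.0% and GC boxes in 42.6% of all windows. Of the 2 windows of ALDH4A1, 1 held a GC box. No window of these 5 genes matched the p53 half-site (5.57% of all windows), the CARE core (3.14%) or the TATA box (10.7%). A match is a match of letters, and its absence from these 250 bases says nothing about the rest of the gene.

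The arrays were alike in depth of signal. Of 34127 probes, between 19836 and 20150 were well above background on an array by the scanner software's own call, no gene's spot was saturated and no probe of the 8 genes was marked as an outlier. Signals are given in the scanner's units before scaling, and each fold change is a ratio of signals after every array was divided by its own 75th percentile, which was 514 in control cells, 536 at 10 μM and 432 at 100 μM. Signals of different probes depend on the probe, so levels are compared between arrays and not between genes. The error beside a log2 fold change is the spot-to-spot SD of a ratio, taken from repeated probes of like brightness, and the interval beside a fold covers 2 such SDs. Both describe the arrays and leave out the spread between cultures and between RNA preparations. Markers of hepatocytes (9 of 9, among them ALB and AFP) were well above background on every array. The leukocyte markers PTPRC, CD3E and CD14 were also above it on every array and did not move together. At 10 μM PTPRC stood at 0.490 and CD3E at 0.708 of control while CD14 was 2.18-fold higher, with a list median of -0.50 on the log2 scale. At 100 μM the values were 1.33-fold, 1.34-fold and 4.22-fold over control. Sums of scaled signal over a marker list are set between arrays only, not between lists. The sum for the leukocyte list was 1.60, 2.52 and 5.06 in control cells, at 10 μM and at 100 μM, most of it CD14 at both doses. That of the 9 hepatocyte markers was 457, 478 and 594, and these did not move together either. Their log2 fold changes over control ran from -0.80 to 0.59 at 10 μM (median -0.06) and from -0.52 to 1.11 at 100 μM (median 0.47). ALB stood at 0.598 and 0.698 of control and AFP at 0.922 and 0.946, while SERPINA1 was 1.39-fold and 1.79-fold over control. Of 3 endothelial markers 2 were above background in control cells (sum 1.03, then 0.678 and 0.819), and of 3 fibroblast markers 1 was, with COL1A1 and COL1A2 above it on no array (sum 0.205, then 0.144 and 0.0792). Of 4 markers of the kidney proximal tubule, where proline and D-amino acids are also oxidised, LRP2 and SLC5A2 were above background on every array. SLC34A1 and CUBN were above it on none (sum of the 4 0.618, then 0.687 and 0.827). LRP2 was 1.24-fold over control at both doses, and SLC5A2 stood at 0.925 of control at 10 μM and at 1.65-fold at 100 μM. The part of these shifts in the results below was not tested. In such bulk RNA a change in every cell and a larger change in some cells cannot be told apart.

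Over all genes, the median log2 fold change was -0.04 at 10 μM over control, 0.10 at 100 μM over control and -0.11 between the doses (low over high). It moved with the scaling, from -0.06 to 0.02, from -0.19 to 0.16 and from -0.18 to 0.21 over 7 scalings of the same arrays. A gene was counted as changed when it passed 2-fold. By that rule 3.39% of 16659 genes were higher and 1.58% were lower at 10 μM than in control cells. At the high dose 6.83% of 16771 genes were higher and 3.68% were lower. Between the doses, 3.66% of 16685 genes were higher at 10 μM and 3.96% were higher at 100 μM. The higher side held 68.2%, 65.0% and 48.0% of the calls in the 3 comparisons, and 66.5% to 73.8%, 33.2% to 70.1% and 40.6% to 77.8% over the scalings. Against those shares, 2 of the 8 genes, PRODH and DAO, were more than 2-fold higher in each of the 3 comparisons, and none of the 8 was more than 2-fold lower in any. Nothing is read from the 2, since they are the genes the set was built around.

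**Figure D1:**
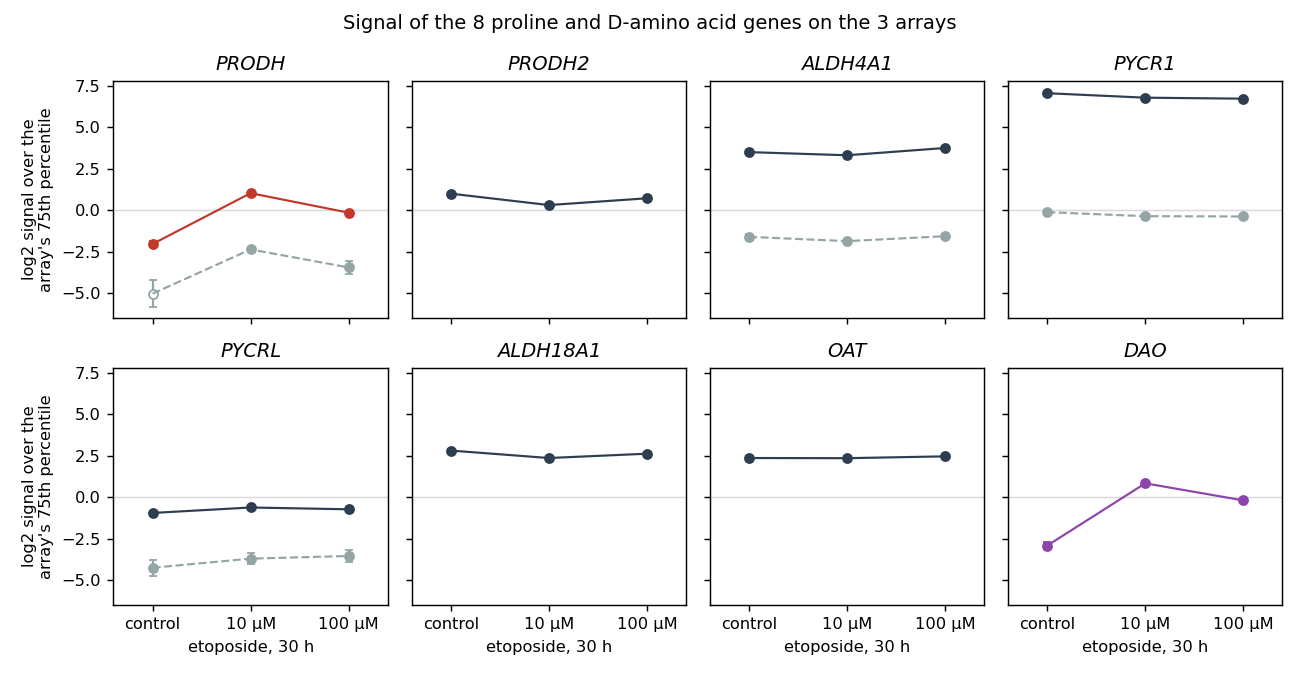
Signal of each gene on the 3 arrays (y axis, log2 signal over the array's 75th percentile; x axis, control cells and both doses of etoposide at 30 h). Solid lines are the brightest probe of a gene and dashed grey lines its second probe; bars are 2 spot-to-spot SDs and the open circle is a signal not well above background. PRODH and DAO are higher by 3.07 and 3.76 at 10 μM than on the control array and lie lower at 100 μM, while the other 6 genes stay within 2-fold, with PRODH2 lowest at -0.69 at 10 μM.

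PRODH, the enzyme that starts proline oxidation, read 125 in control cells, 1098 at 10 μM and 390 at 100 μM. Its order was thus low dose, then high dose, then control, with every step wider than 2 spot-to-spot SDs. The low dose stood 8.42-fold over control (log2 3.07 ± 0.09, interval 7.39 to 9.60), which placed PRODH at rank 29 from the top of 16659 genes. The high dose stood 3.71-fold over control (1.89 ± 0.10, interval 3.22 to 4.28), at rank 165 of 16771. Between the doses the low dose was 2.27-fold higher (1.18 ± 0.07, interval 2.06 to 2.50), at rank 469 of 16685. On the log2 scale the difference from control at 100 μM was 61.5% of that at 10 μM.

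PRODH had a second probe, which belongs to the same gene on the same arrays that the choice used and is given as a description. The brightest probe lies at chr22:17280438-17280497 and the second at chr22:17286965-17287024 (hg18, minus strand for both), with 6527 bases between their starts. The sequence of the second is shown, as written on the array, because it reads a stretch of the gene that the first does not.
PRODH second probe: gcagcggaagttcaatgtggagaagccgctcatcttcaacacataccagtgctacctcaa

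The second probe was dim. Its signal was 15.7 in control cells, which was not well above background, 104 at 10 μM and 39.2 at 100 μM. It therefore gave lower bounds against control, at least 5.10-fold at 10 μM and at least 2.39-fold at 100 μM, and a measured 2.13-fold between the doses (log2 1.09 ± 0.20, interval 1.62 to 2.81). The order of the 3 arrays was that of the brightest probe. The human genome holds a PRODH-like pseudogene, PRODHLP, also on chromosome 22, and the probes could not be compared with its sequence here, so signal from it cannot be told apart from that of PRODH. No other probe on the array has the sequence of either.

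DAO, the D-amino acid oxidase, whose promoter window is shown above, had a single probe (NM_001917, chr12:107818735-107818794, hg18, plus strand). Its signal was 67.9 in control cells, 960 at 10 μM and 378 at 100 μM. The order of the arrays was the same as for PRODH, and neighbours in it again lay more than 2 SDs apart. The low dose was 13.6-fold over control (log2 3.76 ± 0.12, interval 11.4 to 16.1), at rank 14 of 16659 genes. The high dose was 6.62-fold over control (2.73 ± 0.13, interval 5.54 to 7.91), at rank 33 of 16771. The doses differed by 2.05-fold (1.04 ± 0.07, interval 1.85 to 2.27), at rank 577 of 16685, so the spot-to-spot interval of DAO included 2-fold and that of PRODH did not. The log2 difference from control at 100 μM was 72.5% of that at 10 μM.

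Set against each other, the fold change of PRODH over control was smaller than that of DAO by 0.69 ± 0.16 on the log2 scale at 10 μM and by 0.83 ± 0.16 at 100 μM. Between the doses the log2 fold changes of PRODH and DAO differed by 0.15 ± 0.10, within 2 spot-to-spot SDs. Both genes were read on the same arrays, and these errors hold nothing of the spread between cultures.

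**Figure D2:**
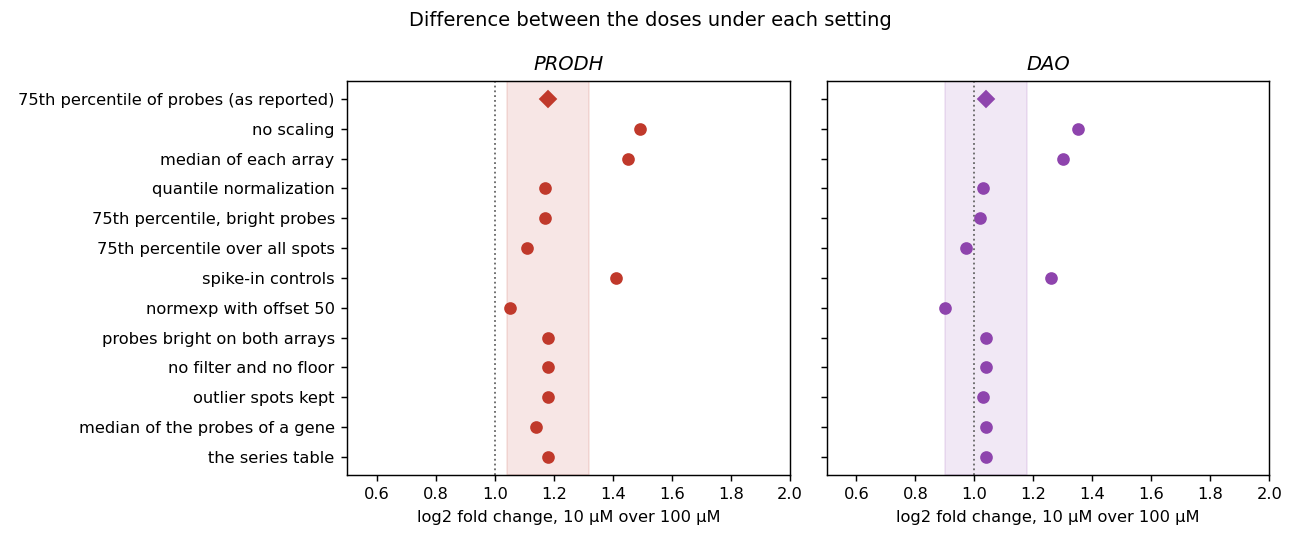
Log2 fold change of PRODH and DAO at the low over the high dose (x axis) under each way of processing (y axis). The diamond is the value as reported, the shaded band its 2 spot-to-spot SDs and the dotted line marks 2-fold. PRODH stays above 2-fold under every setting drawn, from 2.07-fold to 2.82-fold, and DAO lies below it with the background correction by normexp (1.87-fold) and with the percentile taken over all spots (1.95-fold).

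The size of the dose difference moved with the scaling for both genes, and its direction did not. PRODH was 2.16-fold to 2.82-fold higher at 10 μM than at 100 μM over the alternative scalings, and DAO was 1.95-fold to 2.54-fold higher. With normexp, a background correction that adds an offset and so narrows the folds of dim probes, the ratios were 2.07 and 1.87. The same correction moved the folds over control further, and both genes were dim in control cells. PRODH came to 5.81-fold at 10 μM and 2.80-fold at 100 μM, and DAO to 7.57-fold and 4.06-fold.

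Neither PRODH2 nor ALDH4A1 passed 2-fold in any comparison. PRODH2, which oxidises hydroxyproline, was read by 1 probe (NM_021232, chr19:40984948-40985007, hg18, minus strand). Its signal was 1030 in control cells, 665 at 10 μM and 710 at 100 μM. It was highest in control cells, and was 1.61-fold lower at 10 μM (ratio 0.619, interval 0.562 to 0.683), where 4.38% of all genes had a lower ratio. At the high dose the ratio to control was 0.820 (interval 0.739 to 0.909), and the low dose stood at 0.756 of the high dose (interval 0.684 to 0.835). Its log2 fold change lay below the median of all genes by 0.65 at 10 μM and by 0.38 at 100 μM, and below it under all 7 scalings. The log2 fold change of PRODH exceeded that of PRODH2 by 3.77 ± 0.12 at 10 μM and by 2.18 ± 0.13 at 100 μM.

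ALDH4A1, the dehydrogenase that completes the breakdown of proline to glutamate, had its brightest probe for NM_003748 (chr1:19070636-19070695, hg18, minus strand). Its signal was 5852 in control cells, 5375 at 10 μM and 5860 at 100 μM. After scaling, the ratio to control was 0.880 at 10 μM (interval 0.807 to 0.960) and 1.19 at 100 μM (interval 1.09 to 1.30). The high dose was thus the highest of the 3 arrays for this gene, and the low dose stood at 0.739 of it (interval 0.677 to 0.808). The side of the high-dose value depended on the scaling, since its log2 fold change over control ran from -0.04 to 0.31, but it stayed above the median of all genes under all 7. A dimmer second probe for another transcript (NM_170726) gave 0.837 at 10 μM and 1.03 at 100 μM. The log2 fold change of PRODH exceeded that of ALDH4A1 by 3.26 ± 0.11 at 10 μM.

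**Figure D3:**
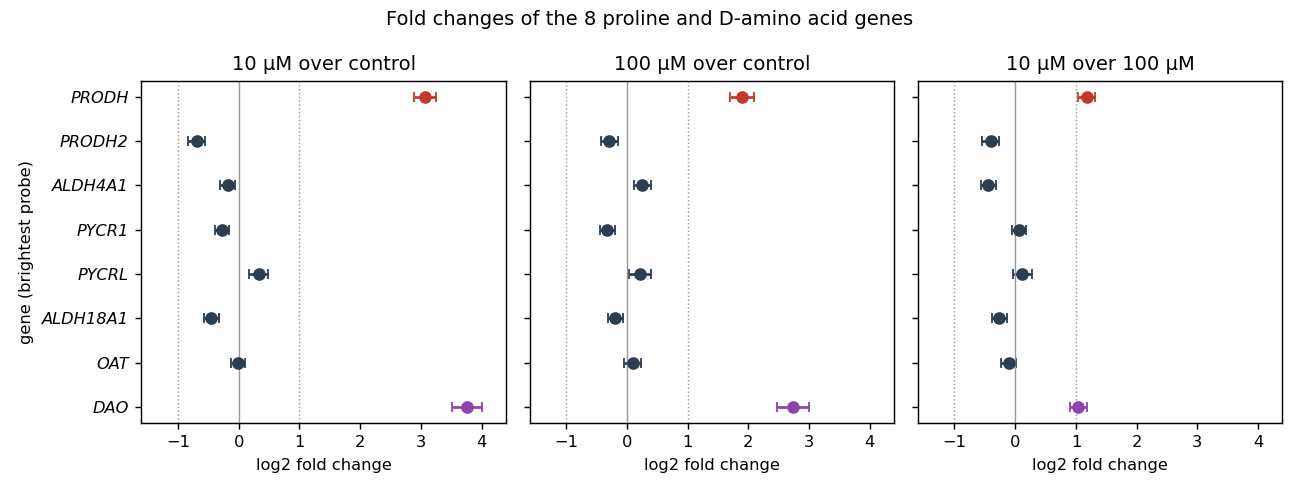
Log2 fold changes of the 8 genes (x axis, brightest probe of each; y axis, gene) in the 3 comparisons. Bars are 2 spot-to-spot SDs, the solid line is no change and dotted lines are 2-fold. The values other than PRODH and DAO lie from -0.69 to 0.33 at 10 μM, from -0.32 to 0.25 at 100 μM and from -0.44 to 0.12 between the doses.

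Of the genes that make proline, PYCR1 and ALDH18A1 had lower ratios to control, PYCRL a higher one, and OAT lay within 2 spot-to-spot SDs of control. PYCR1, the mitochondrial reductase of the last step, was read best for NM_006907 (chr17:77483622-77483681, hg18, minus strand). Its signal was 68921 in control cells, 59827 at 10 μM and 46329 at 100 μM. It was 0.832 of control at 10 μM (interval 0.767 to 0.902) and 0.799 at 100 μM (interval 0.736 to 0.868). The doses did not differ beyond 2 spot-to-spot SDs (ratio 1.04, interval 0.961 to 1.13), and the sign of that difference turned with the scaling (log2 from -0.01 to 0.37). A dimmer probe for another PYCR1 transcript (NM_153824) gave 0.851 and 0.838 of control. Relative to the median of all genes PYCR1 was lower by 0.23 and by 0.42 on the log2 scale, and it was lower under all 7 scalings.

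PYCRL, the cytosolic reductase of the same step, had 266 in control cells, 350 at 10 μM and 260 at 100 μM. Its ratio to control was 1.26 at 10 μM (interval 1.12 to 1.41) and 1.16 at 100 μM (interval 1.03 to 1.31), the latter below 1 under some scalings (log2 from -0.07 to 0.27). A second probe at 26.8, 41.1 and 36.9 gave 1.47-fold and 1.64-fold, with intervals of 0.964 to 2.23 and of 1.06 to 2.53. Between the doses the brightest probe gave a ratio of 1.08 (interval 0.970 to 1.21) and the second 0.897 (interval 0.625 to 1.29), so neither placed the doses apart beyond 2 spot-to-spot SDs. As scaled here, PYCRL was the only one of the 6 genes other than PRODH and DAO with a ratio to control above 1 at 10 μM. That of OAT was 0.990 and ran from 0.975 to 1.03 over the alternative scalings.

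ALDH18A1, the synthase at the start of the route from glutamate (NM_002860, probe at chr10:97356127-97356186, hg18, minus strand), had 3634 in control cells, 2776 at 10 μM and 2680 at 100 μM. The low dose was 0.732 of control (interval 0.675 to 0.794), with 11.1% of all genes at a lower ratio, and the high dose was 0.877 (interval 0.803 to 0.958). The ratio of low to high dose was 0.835 (interval 0.770 to 0.906), and its sign turned with the scaling (log2 from -0.33 to 0.05). ALDH18A1 lay below the median of all genes by 0.41 and by 0.29 on the log2 scale, and below it under all 7 scalings. OAT, the aminotransferase that feeds ornithine into the pathway (NM_000274, probe at chr10:126076247-126076306, hg18, minus strand), had 2663, 2751 and 2394. Its ratio was 0.990 at 10 μM (interval 0.912 to 1.08) and 1.07 at 100 μM (interval 0.976 to 1.17), and no pair of the 3 arrays differed beyond 2 spot-to-spot SDs. The sign of its log2 fold change turned with the scaling in every comparison. The promoter windows of these 2 genes, shown above, differ in their motifs, with the E-box in ALDH18A1 and the CCAAT and GC boxes in OAT.

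Among the 6 genes other than PRODH and DAO, 1 was above and 5 were below control at 10 μM, with a median log2 fold change of -0.22 against -0.04 for all genes. At the high dose 3 were above and 3 below, with a median of -0.05 against 0.10. Between the doses 2 were higher at 10 μM and 4 at 100 μM, with a median of -0.19 against -0.11. These counts turned with the scaling. Over the 7 scalings, 1 to 2 of the 6 were above control at 10 μM, 0 to 3 were above control at 100 μM, and 1 to 4 were higher at 10 μM than at 100 μM.

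**Figure D4:**
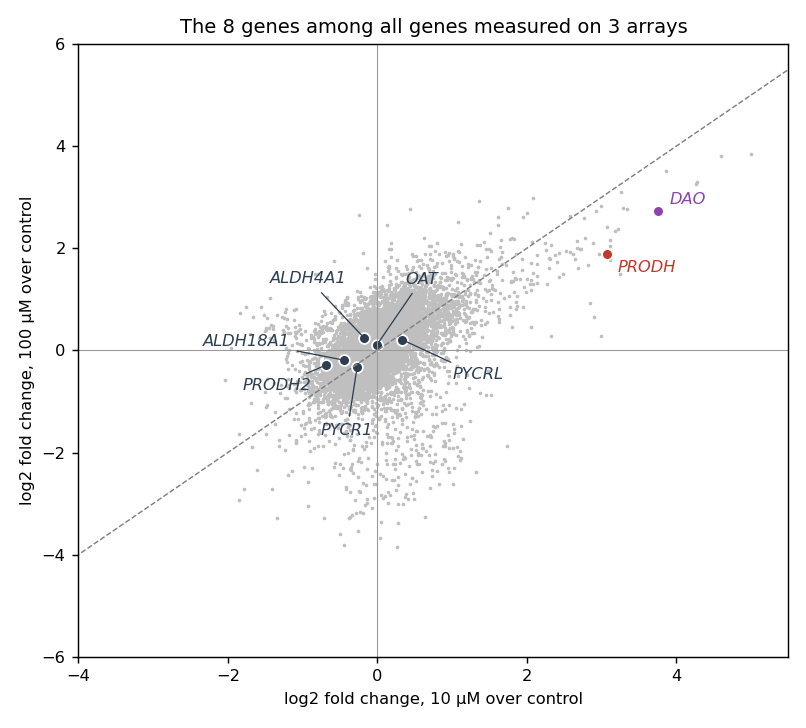
Log2 fold change over control at 10 μM (x axis) and at 100 μM (y axis) for genes with a measured value in both, as grey points, with the 8 genes marked; both axes share the control array. The dashed line marks equal change at both doses. PRODH and DAO lie far right and under the line, and the other 6 lie within 2-fold on both axes. PRODH2, at -0.69 at 10 μM, was below the 5th percentile (-0.65) of all 16659 genes measured there, a wider set than the points drawn.

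The genes whose pair of fold changes over control lay nearest to those of PRODH and DAO were sought among 12045 genes with an mRNA accession in RefSeq that stood well above background in all conditions. Likeness was the distance between pairs of log2 fold changes, over 3 arrays of which control enters both values. Nearest to PRODH were IGFBP2, which binds insulin-like growth factors (distance 0.12, 7.77-fold and 3.70-fold over control), LOXL4, a lysyl oxidase (0.14), EVL, a regulator of actin (0.15), GPR56, an adhesion receptor (0.27), and TMC7 (0.29). Nearest to DAO were the antiproliferative gene BTG2 (distance 0.42, 10.1-fold and 6.82-fold over control), EBI3, a cytokine subunit (0.48), CD3D, of the T-cell receptor complex (0.63), C9orf169 (0.65) and KCNN4, a potassium channel (0.69). DAO was 46th in the order for PRODH, at a distance of 1.08, and PRODH was 16th in the order for DAO.

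The wider pathway was followed in 6 lists of 63 genes, of which 50 could be measured. At the low dose 3 of the 50 were more than 2-fold higher than in control cells and 0 were lower. At the high dose 1 was higher and 1 lower, and between the doses 1 was higher at 10 μM. These shares stand beside the shares of all genes given above, and the medians of the 50 (-0.05, -0.05 and -0.02) beside those of all genes.

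**Figure D5:**
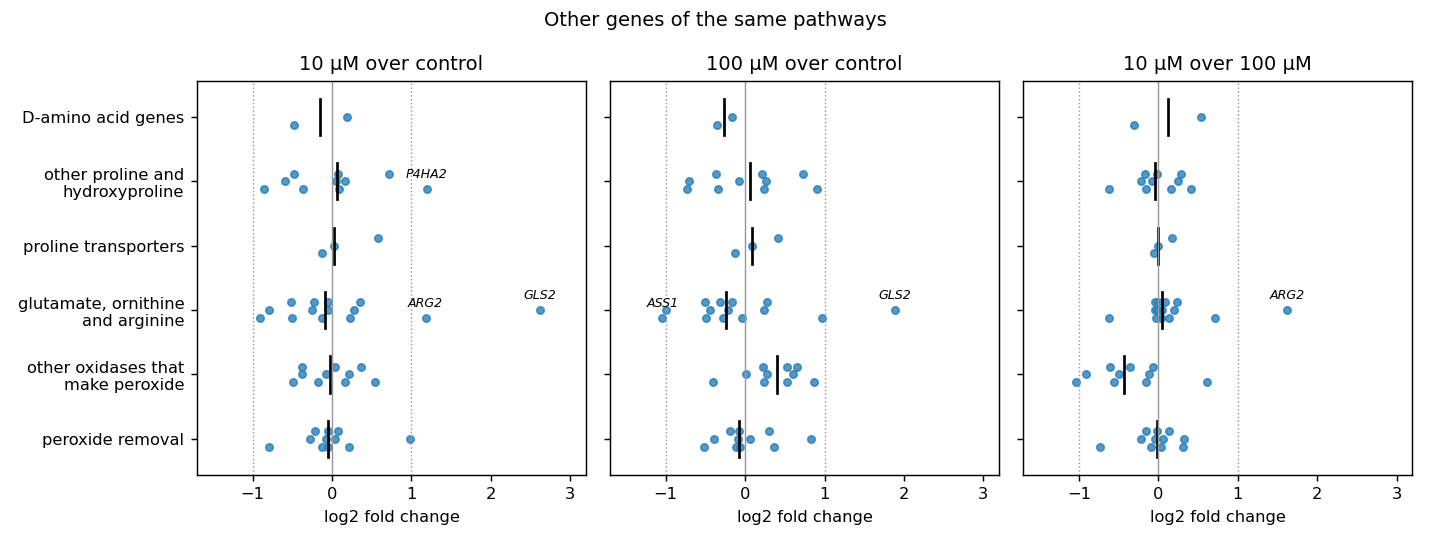
Log2 fold changes of the measured genes of 6 pathway lists (y axis) in the 3 comparisons (x axis). Each point is a gene, black bars are list medians and dotted lines mark 2-fold; the genes past 2-fold that the text describes are named. GLS2 is past 2-fold at both doses, P4HA2 and ARG2 at 10 μM, and ASS1 is lower at 100 μM.

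No other gene of D-amino acid metabolism passed 2-fold. DDO, the oxidase of acidic D-amino acids, had signals of 69.7, 52.3 and 51.9 and ratios to control of 0.719 and 0.886. SRR, the racemase that makes D-serine, had 43.5, 51.7 and 28.7 and ratios of 1.14 and 0.783. DAOA was not well above background on any array.

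Of 12 other proline and hydroxyproline genes, 10 were measured, with a median log2 fold change of 0.06 at 10 μM and 0.07 at 100 μM. P4HA2, a prolyl hydroxylase of collagen synthesis, was past 2-fold, with signals of 1943, 4617 and 3047. It was 2.28-fold over control at 10 μM and 1.86-fold at 100 μM, and a further probe gave 2.18-fold and 1.89-fold. Of 6 proline transporters 3 were measured, between 0.912 (SLC38A2) and 1.49 (SLC36A4) of control at 10 μM.

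Around glutamate, ornithine and arginine, 14 of 16 genes were measured. GLS2, the liver-type glutaminase that makes glutamate from glutamine, had signals of 92.6 in control cells, 592 at 10 μM and 289 at 100 μM. It was 6.13-fold over control at 10 μM and 3.72-fold at 100 μM, in the same order of arrays as PRODH and DAO, with 1.65-fold between the doses. ARG2, the mitochondrial arginase that makes ornithine, had 408, 964 and 253. It was 2.27-fold over control at 10 μM but 0.739 of control at 100 μM, so that the doses differed by 3.07-fold, and by 2.93-fold to 3.81-fold over the scalings. ASS1, which makes argininosuccinate, had 3940, 2185 and 1611, with ratios to control of 0.532 and 0.486, and was past 2-fold lower at 100 μM under 5 of 7 scalings. OAT, which consumes the ornithine that arginase makes, stayed near control as described above.

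Oxidases and enzymes that handle hydrogen peroxide, the product of DAO, were compared last. Of 15 genes listed as other oxidases that make peroxide 10 were measured. Their median log2 fold changes were -0.02 at 10 μM and 0.41 at 100 μM, against -0.04 and 0.10 for all genes. The list also holds SARDH, which was measured, and DMGDH, which was not. Both are dehydrogenases that pass electrons to a carrier protein, so the list is wider than its name. All 11 genes listed for peroxide removal were measured and none passed 2-fold. That list also holds SOD1 and SOD2, which make peroxide from superoxide and do not remove it. CAT, the peroxisomal catalase, had 1437, 868 and 1160, which was 0.579 of control at 10 μM and 0.960 at 100 μM. GPX1, the cytosolic glutathione peroxidase, was 1.97-fold over control at 10 μM and 1.78-fold at 100 μM, and passed 2-fold at 10 μM under 3 of 7 scalings. PRDX3, the mitochondrial peroxiredoxin, was the lowest of them at 100 μM, at 0.697 of control.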

How the data were processed

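RNA of HepG2 cells was measured on 1-color Agilent arrays, 1 per condition, grouped by the labels. The authors deposited, for each spot, a background-subtracted intensity from Agilent Feature Extraction (version 10.7.3.1, per the submitters' processing notes), and a series table that equals it at 44495 of 44495 spots. Spots of a probe were averaged as log2 without outlier spots, signals under 1 were set to 1, and each array was set to its 75th percentile over non-control probes. A gene was read from its brightest probe. For a fold, the brighter condition had to be well above background, and a dimmer side below it was raised to the lowest such signal on its array (19.5, 22.7 and 21.6). The spot-to-spot SD came from the 50 repeated probes nearest in signal. The number of arrays limits the precision.

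Named genes were the 8 genes, pathway genes past 2-fold or, where a list had none, its highest and lowest, and the 5 genes nearest to PRODH and to DAO in pattern. Results for some pathway genes are not reported here. The genes and lists were chosen with earlier results of these data known. Steps were tested on simulated arrays. Probe positions are those of the files (hg18). Promoter positions are RefSeq's. Python 3.11.15, numpy 2.4.6, pandas 2.3.3, R 4.3.3 and limma 3.58.1 were used. Alternatives covered the scaling, background correction, filters, probes, thresholds and the series table. Proteins were not compared.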

Additional observations from a re-analysis of the deposited data

How the results depend on the processing

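Most values kept their direction. Of 288 values for the 8 genes under alternatives, 214 moved by less than the spot-to-spot SD, 74 moved by more and 0 turned the direction of a gene past 2-fold. Only PRODH and DAO, the genes of the choice, were past 2-fold, so only their values could have been counted as turned. The series table, the filters and the kept outlier spots could hardly move these values, and they are among the 214. These counts are thus a description and no check of the results. In 16 of 24 pairs of gene and comparison the sign was kept under all 12 alternative settings of the values, and the others were among the genes near 1, with OAT on both sides in every comparison. The count of genes more than 2-fold lower at 10 μM than in control cells was 0, and was 1 (PRODH2) at a threshold of 1.5-fold. The count past 2-fold upward between the doses (low over high) was 2, and was 1 with the 75th percentile over all spots, 1 with normexp and 0 at 3-fold. The DAO fold over control went from 13.6 to 7.57 at 10 μM and from 6.62 to 4.06 at 100 μM with normexp, a change of over 1.5 times in both. No paired analysis was possible because 1 array stands for each condition, and for the same reason no array could be left out. The comparison of protein sequences was not run. Signal over background limited the second PRODH probe in control cells, which has only a bound there, and 1 array per condition leaves the spread between cultures unmeasured.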
